A study of Mus musculus with 222 samples.

Results

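The 4 genes described here are Tet1, Tet2, Tet3 and Tdg, which encode the enzymes that oxidise and excise methylated cytosine. They were taken by gene symbol, without reference to their values, from 24391 symbols in 5 deposited count tables of mouse primordial germ cells (PGCs). All embryos were of the strain labelled C57BL/6;129S1/SvlmJ and came from OG; Eed fl/fl mothers and BC; Eed fl/+ fathers, OG being the Oct4-GFP reporter used to sort PGCs and BC the Blimp1-Cre driver. ECKO embryos lack Eed, a core subunit of the Polycomb repressive complex PRC2, in cells that have expressed Blimp1-Cre. Control embryos are labelled wild type, but every embryo of this cross inherits a floxed Eed allele from its mother. Bulk RNA-seq covered sorted GFP-positive gonadal cells at E11.5 (E for embryonic day) from XY embryos (4 Control, 4 ECKO) and XX embryos (3 Control, 4 ECKO), and at E13.5 from XY embryos (4 Control, 3 ECKO). Single cells were sequenced at E12.5 from 2 embryos of each sex and genotype, 24 cells each, of which 127 of 192 had at least 50000 counts and 1500 genes and were kept. The embryos of each group are called a and b.

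TET enzymes convert 5-methylcytosine to 5-hydroxymethylcytosine and on to formylcytosine and carboxylcytosine, using iron, oxygen and alpha-ketoglutarate. The DNA glycosylase TDG removes the last pair of these bases, and base excision repair then restores an unmodified cytosine. PGCs lose most of their DNA methylation before and shortly after they enter the gonad, and TET1 is known for its part in demethylating and activating germ line and meiotic genes there. TET1 and a long isoform of TET3 carry a CXXC zinc finger that binds CpG-rich DNA, TET2 has none of its own, and TET3 is best known for oxidising the paternal genome in the zygote.

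Tet1 and Tet3 are the members whose counts passed a test between ECKO and Control, and the sequence before an annotated start of each is shown so that the CpG content of the promoters can be compared. The windows are the 250 bases before the start in RefSeq on GRCm38.p6, 5′ to 3′ on the gene's strand, with CG dinucleotides in capitals. The Tet1 window is chr10:62887325-62887574 and the Tet3 window chr6:83441679-83441928, both on the minus strand.
Tet1: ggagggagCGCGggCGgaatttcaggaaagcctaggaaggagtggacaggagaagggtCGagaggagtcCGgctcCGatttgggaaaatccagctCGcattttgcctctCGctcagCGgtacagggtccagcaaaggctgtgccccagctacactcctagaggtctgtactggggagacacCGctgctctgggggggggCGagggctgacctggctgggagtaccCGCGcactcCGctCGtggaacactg
Tet3: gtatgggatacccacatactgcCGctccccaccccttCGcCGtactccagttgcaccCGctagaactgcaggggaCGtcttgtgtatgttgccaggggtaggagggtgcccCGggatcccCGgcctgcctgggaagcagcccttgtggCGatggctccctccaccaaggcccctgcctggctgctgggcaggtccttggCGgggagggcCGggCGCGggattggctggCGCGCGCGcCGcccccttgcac
The Tet1 window held 15 CG and the Tet3 window 17, against a median of 6 over 32851 promoter windows of the same length. Of all windows, 27.3% held at least 15 CG and 23.5% at least 17. The Tet2 window held 51, a number reached by 0.067% of windows, and the Tdg window 19, reached by 19.7%. CG reads the same on both strands, and 92.1% of windows held at least 1. These counts describe the reference sequence and carry no information on methylation in the samples.

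Depth ranged from 8607927 to 14974853 counts per library at E11.5 XY, from 415291 to 7559310 at E11.5 XX and from 4903492 to 12425911 at E13.5 XY. Eed was lower in ECKO than in Control in every bulk table without overlap of the libraries: 15.7 to 46 against 76.4 to 135 CPM (counts scaled to library size) at E11.5 XY, 11.9 to 26.6 against 74.2 to 84.6 at E11.5 XX, and 3.18 to 14.4 against 63.8 to 130 at E13.5 XY. At E12.5 the ECKO embryos lay between 7.10 and 21.9 CPM and the Control embryos between 40.7 and 62.0. All 12 germ cell markers on the list used had reads in every bulk library but 1. The library ECKO 4 of E11.5 XX and the library ECKO 4 of E11.5 XY stood apart in their summed markers of interstitial and mesenchymal cells (16 genes such as Pdgfra and Col1a1), with 1254 and 444 CPM against 35.2 to 170 and 21.2 to 64.5 in the other ECKO libraries of those groups. Fold changes of Tet1, Tet2 and Tet3 between ECKO and Control at E11.5 are given with and without them. Values of the listed genes, shares of Tet reads and likeness between genes include them. The labels do not say whether bulk libraries came from separate embryos, so p-values measure the spread between these libraries. In bulk libraries, fewer cells of a type and less RNA per cell cannot be told apart. CPM is not corrected for transcript length, so it compares a gene between samples and not genes with each other. Groups without overlap are described by their values, and the share of all genes without overlap was not counted.

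Tet1, which encodes a TET enzyme with a CXXC zinc finger, was lower in XY ECKO PGCs at E11.5. The Control libraries held 1103, 952, 1350 and 1092 CPM, a mean of 1124 ± 165 (SD, n = 4). The ECKO libraries held 682, 775, 803 and 508 CPM, a mean of 692 ± 133 (SD, n = 4). Every ECKO library lay below every Control library. Tet1 fell by 0.68 on the log2 scale (SE 0.16, edgeR quasi-likelihood test, Benjamini-Hochberg adjusted p = 0.0318), in a comparison in which 2.13% of 12497 genes passed and 0.616% were called lower. In size this was not an extreme change, since 26.5% of the genes tested moved further in either direction. The call was narrow: the adjusted p rose to 0.0511 with total counts alone as scaling, where the log2 fold change was -0.63, and to 0.607 with all 22 bulk libraries in 1 fit (-0.70). It was also lost without Control 2 (-0.75, adjusted p = 0.0520), Control 3 (-0.58, 0.0876), Control 4 (-0.69, 0.0849), ECKO 1 (-0.67, 0.0597) or ECKO 4 (-0.56, 0.0749).

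At E11.5 in XX PGCs, Tet1 had a difference of like size that did not pass the test. The Control libraries held 812, 1011 and 979 CPM and the ECKO libraries 582, 748, 707 and 432 CPM. The groups did not overlap, with means of 934 ± 107 (SD, n = 3) and 617 ± 142 (SD, n = 4). The log2 fold change was -0.60 (SE 0.20, edgeR adjusted p = 0.205), where 0.172% of 11058 genes passed. Leaving out single libraries gave values between -0.72 and -0.47, the latter without ECKO 4. The effect of ECKO on Tet1 was not shown to differ between the sexes: the XX minus XY difference was 0.10 on the log2 scale (SE 0.26, edgeR adjusted p = 0.982). For that interaction edgeR called 0 of 14185 genes (0%), DESeq2 called 1, and 747 had an unadjusted edgeR p under 0.05. Leaving out single libraries moved the Tet1 interaction between -0.03 and 0.24. Between XX and XY Control libraries Tet1 differed by -0.26 (SE 0.19, edgeR adjusted p = 0.663). Sex and deposited table go together in this contrast and cannot be told apart.

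In XY Control PGCs, Tet1 rose from E11.5 to E13.5. The 4 Control libraries at E13.5 held 2854, 3054, 5906 and 3865 CPM, a mean of 3920 ± 1394 (SD, n = 4), and all lay above the E11.5 Control libraries. The log2 fold change between the stages was 1.70 (SE 0.48, edgeR adjusted p = 0.0101), in a comparison in which 31.5% of 14447 genes passed and 15.8% were called higher. Tet1 passed with each of the 15 XY libraries left out in turn (1.43 to 1.83). Stage and deposited table go together here and cannot be told apart.

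XY ECKO PGCs at E13.5 differed widely in Tet1. The 3 ECKO libraries held 1749, 350 and 123 CPM, all below the lowest Control library at 2854 CPM. Their mean was 741 ± 881 (SD, n = 3), beside 692 CPM in XY ECKO libraries at E11.5. The log2 fold change against Control was -2.37 (SE 0.74, edgeR adjusted p = 0.0848), which did not pass, in a comparison in which 4.9% of 12336 genes passed and 1.9% were called lower. The value depended on ECKO 1: without that library it was -4.12 (adjusted p = 0.00215), and without others between -2.49 and -1.86. The difference passed in DESeq2 (-2.33, adjusted p = 0.0132), with every gene of at least 1 count in edgeR (-2.32, 0.00546) and with all 22 bulk libraries in 1 fit (-2.40, 0.00109). The change in the ECKO effect from E11.5 to E13.5 was -1.70 (SE 0.70, edgeR adjusted p = 0.208), where 1.2% of genes passed; without E13.5 ECKO 1 it was -3.34 (adjusted p = 0.000114). Summed germ cell markers moved the same way, from 3677 to 4410 CPM in E13.5 Control libraries against 1959 to 2963 CPM in ECKO libraries. The members of this sum did not move alike. Group means fell most in CPM for Dppa3 (1519 to 648), Sall4 (728 to 328) and Kit (444 to 123). Means of Ddx4 (297 to 394), Dnd1 (9.50 to 22.4) and Nanos3 (0.90 to 12.1) were higher in ECKO, and no other mean on the list was. These genes were named after their values were seen. The part of the germ cell markers in the Tet1 values was not tested.

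**Figure D1:**
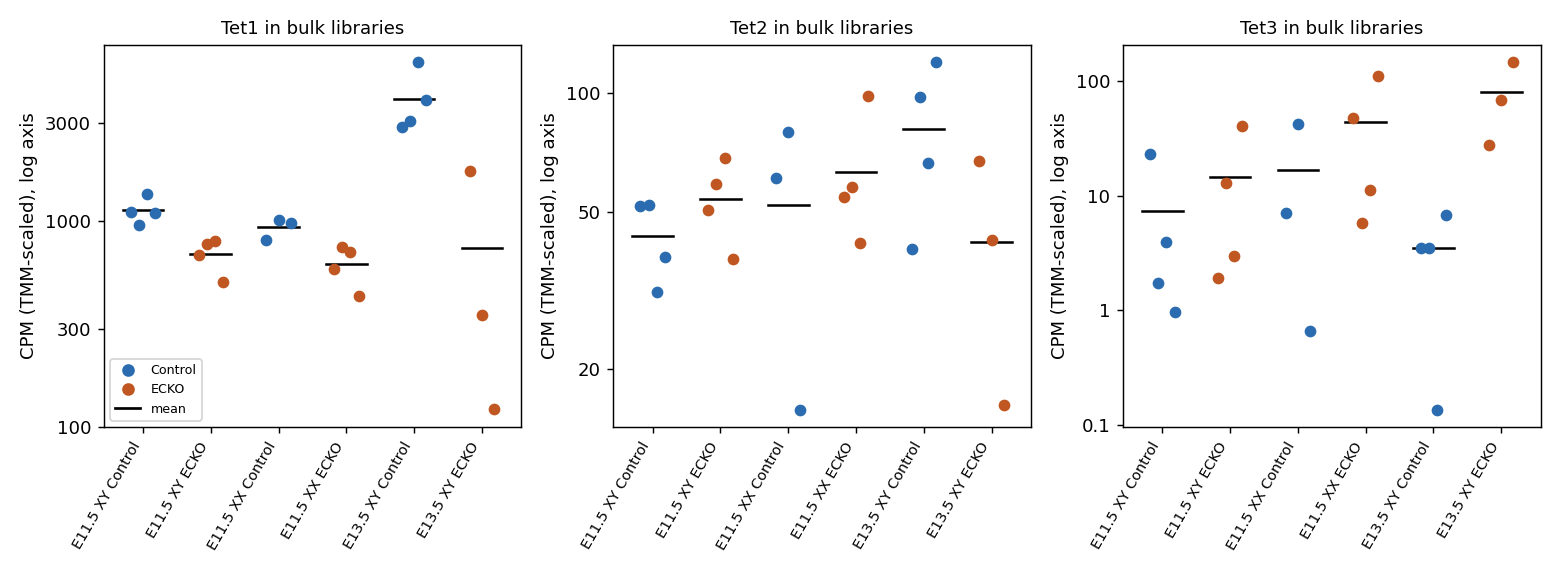
CPM with TMM scaling (trimmed mean of M values) of Tet1, Tet2 and Tet3 on log axes in the 22 bulk libraries by group, with blue points for Control, orange points for ECKO and bars for group means. Tet1 points of ECKO lie below those of Control in each pair of groups, and Tet3 points of E13.5 XY ECKO (27.8 to 147 CPM) lie above the Control points (0.136 to 6.85 CPM).

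Tet3 behaved in the opposite way at E13.5. The XY Control libraries had 31, 38, 1 and 30 Tet3 reads, or 3.48, 3.48, 0.136 and 6.85 CPM. The ECKO libraries had 219, 611 and 1575 reads, or 27.8, 68.6 and 147 CPM. Each ECKO library lay above every Control library, with means of 81.2 ± 60.6 (SD, n = 3) and 3.49 ± 2.74 CPM (SD, n = 4). Tet3 rose by 4.52 on the log2 scale (SE 0.88, edgeR adjusted p = 0.0170), where 2.99% of genes were called higher and 2.33% of genes moved further in either direction. The call was lost without Control 1 (4.54, adjusted p = 0.0560), Control 4 (5.09, 0.0509), ECKO 2 (4.62, 0.0568) or ECKO 3 (3.79, 0.0984). The direction held in each of these. The interstitial marker sum was 13.1 to 45.2 CPM in Control and 26.3 to 79.7 CPM in ECKO libraries at E13.5, which overlapped, and 2 to 11 of the 16 markers were at 0 in Control and 3 to 9 in ECKO. Its members did not move alike. Pdgfra was at 0 to 1.84 CPM in Control and 5.18, 36.4 and 24.1 CPM in ECKO libraries 1 to 3, and Col1a1 at 0.284 to 4.69 and 4.16, 21.8 and 13.8 CPM. Star ran from 5.57 to 42.1 CPM in Control and from 0.694 to 11.1 CPM in ECKO. Endothelial marker sums were lower in ECKO (30.3 to 77.1 against 150 to 221 CPM), mostly through Pecam1 (4.36 to 70.4 against 142 to 214 CPM). Without Pecam1 the other 8 endothelial markers summed to 4.67 to 7.66 CPM in Control and to 6.64, 35.5 and 26.0 CPM in ECKO libraries 1 to 3. Blood markers were near 0 in both (0.496 to 5.70 CPM in ECKO and 0 to 6.53 CPM in Control). These marker genes were named after their values were seen, and the part of other cells in the E13.5 Tet3 values was not tested.

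At E11.5 Tet3 varied more within groups than between them. XY Control libraries held 23.1, 1.73, 3.93 and 0.974 CPM, and XY ECKO libraries 1.91, 13, 2.96 and 40.8 CPM. XX Control libraries held 7.04, 42.6 and 0.657 CPM, the first and last from 3 and 2 reads, and XX ECKO libraries 47.4, 5.84, 11.3 and 111.8 CPM. The groups overlapped in both sexes. The log2 fold change was 1.0 in XY (SE 0.95, edgeR adjusted p = 0.661) and 1.36 in XX (SE 1.06, adjusted p = 0.614), and without XY ECKO 4 the XY value turned to -0.29. The XX value was 0.34 without XX ECKO 4 and 4.50 without XX Control 2 (adjusted p = 0.309), and the XY value was 2.76 without XY Control 1. The 2 highest Tet3 values of E11.5 after XX ECKO 4 were XX ECKO 1 and XX Control 2, with interstitial marker sums of 170 and 106 CPM, and XX ECKO 4 had the highest of both. In XY the Control library with most Tet3 (Control 1) also had the highest interstitial sum of its group, 90.2 against 11.6 to 26.4 CPM, and the highest blood marker sum, 333 against 8.09 to 13.4 CPM. The part of other cells in the E11.5 Tet3 values was not tested.

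**Figure D2:**
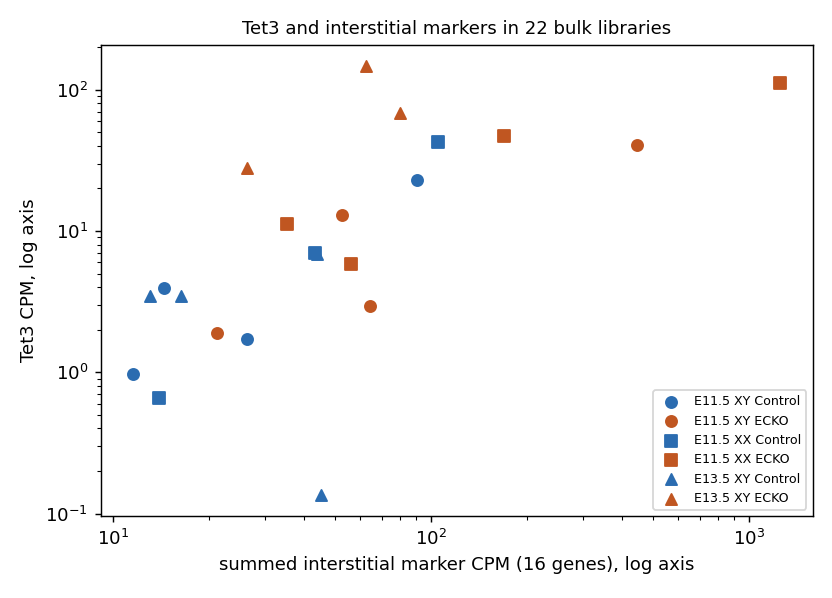
Tet3 CPM against the summed CPM of 16 interstitial and mesenchymal markers on log axes, 1 point per bulk library, with shapes for stage and sex and colours for genotype. The E11.5 libraries with most Tet3 also have high marker sums, and the 3 E13.5 XY ECKO libraries lie at 27.8 to 147 CPM of Tet3 and marker sums of 26.3 to 79.7 CPM.

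Across stage and sex, Tet3 in Control PGCs did not differ beyond its spread. The XY change from E11.5 to E13.5 was -1.22 (SE 1.01, edgeR adjusted p = 0.377) and turned to 0.52 without E11.5 XY Control 1. The XX minus XY difference at E11.5 was 1.23 (SE 1.15, adjusted p = 0.739, 0.296% of genes passing) and turned to -1.85 without XX Control 2. Stage and sex each go with the deposited table in these Control contrasts. The change in the ECKO effect on Tet3 from E11.5 to E13.5 was 3.58 (SE 1.45, adjusted p = 0.203), so an effect limited to the later stage was not shown.

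Tet2, whose product lacks a CXXC domain of its own, passed no test between bulk groups. XY libraries at E11.5 held 51.8, 52.1, 31.3 and 38.4 CPM in Control and 50.6, 58.7, 68.5 and 38 CPM in ECKO, which overlapped (log2 fold change 0.33, SE 0.25, edgeR adjusted p = 0.559). Without ECKO 4 this XY value was 0.47. XX libraries held 61.0, 79.4 and 15.8 CPM in Control and 54.4, 57.7, 41.7 and 98.1 CPM in ECKO (0.30, SE 0.48, adjusted p = 0.826), and the sign turned without Control 3 (-0.20) and without ECKO 4 (-0.00048). At E13.5 the XY Control libraries held 40.1, 97.5, 66.5 and 120 CPM and the ECKO libraries 67.2, 42.4 and 16.2 CPM (-0.93, SE 0.54, adjusted p = 0.325). Tet2 in XY Control PGCs differed by 0.80 between E13.5 and E11.5 (SE 0.39, adjusted p = 0.126). The coefficient of variation of Tet2 within bulk groups was 23.7% to 62.9%, against 78.7% to 141% for Tet3 in all groups but E13.5 XY ECKO (74.7%), and 11.4% to 35.6% for Tet1 outside E13.5 XY ECKO (119%).

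**Figure D3:**
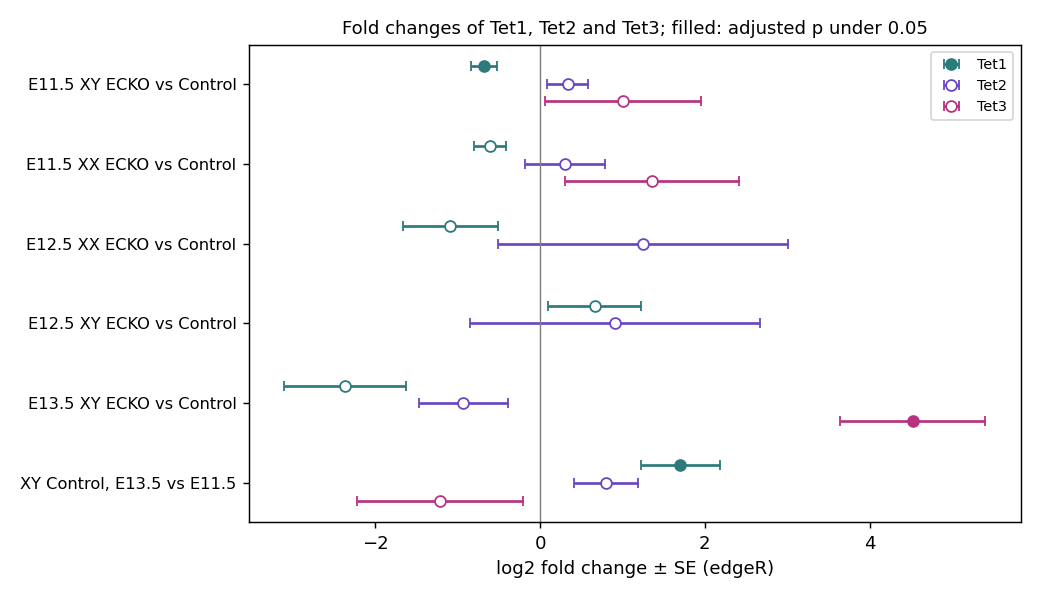
Log2 fold changes (x axis) of Tet1, Tet2 and Tet3 with SE bars derived from the edgeR F statistic in the ECKO comparisons and between stages in XY Control, filled where the adjusted p is under 0.05. Tet1 lies at -0.68, -0.60, -1.09, 0.66 and -2.37 in the 5 ECKO comparisons from top to bottom. Tet3 at E12.5 is not drawn in either sex. XX Control had no Tet3 read, and the XY value was 0.60 (SE 2.58).

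The make-up of Tet reads within a library was also described, as the share of each gene in the summed reads of Tet1, Tet2 and Tet3. These shares use reads, which depend on transcript length, so the shares of different genes are not shares of molecules. In XY at E11.5, Tet1 made up 93.6% to 97.5% of Tet reads in Control and 86.6% to 92.8% in ECKO, without overlap. At E13.5 the Control libraries held 96.8% to 98.9% and the ECKO libraries 94.8%, 75.9% and 43.0%. In E13.5 ECKO 3, Tet3 supplied 51.4% of Tet reads, against 0.002% to 0.172% in the Control libraries. XX libraries at E11.5 overlapped, with 89.2% to 98.3% in Control and 67.3% to 93.0% in ECKO, the lowest being ECKO 4.

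**Figure D4:**
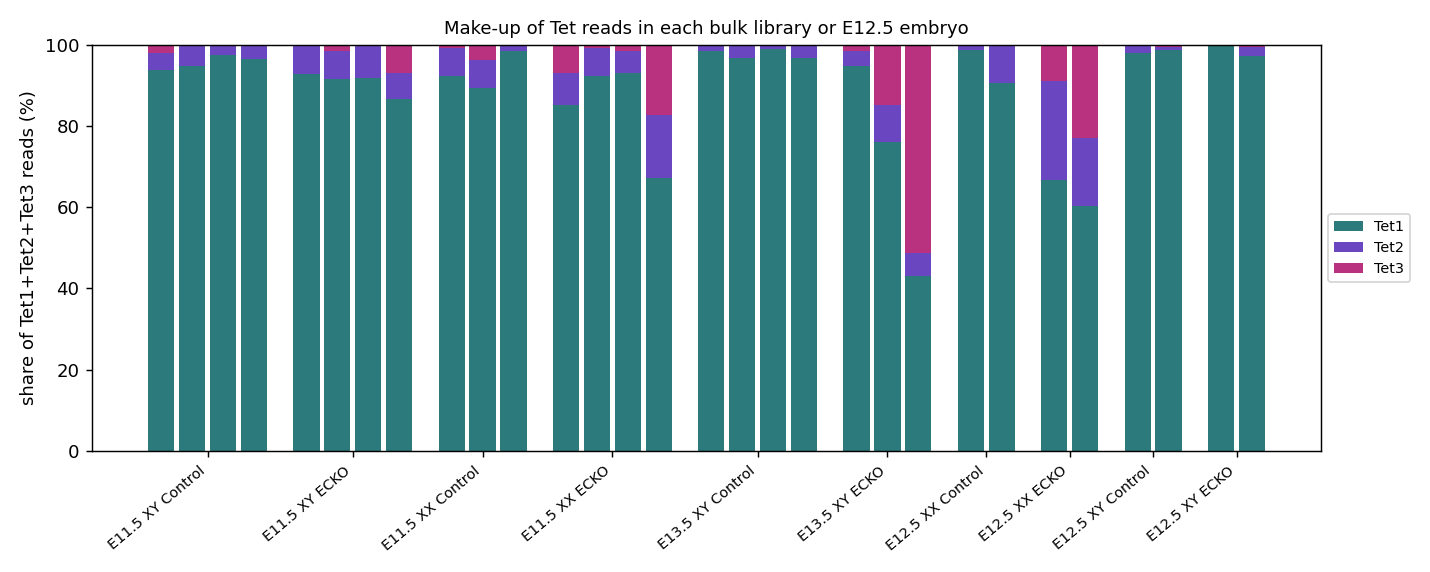
Percent of the summed Tet1, Tet2 and Tet3 reads that came from each gene, 1 stacked bar per bulk library or E12.5 embryo, in label order within groups. Tet1 makes up most of every bar but one and falls to 43.0% in E13.5 XY ECKO 3 and to 60.4% in E12.5 XX ECKO b.

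At E12.5 the kept cells of each embryo were summed, and 2 embryos a group left little power. Tet1 was at 66.3 and 65.8 CPM in XX Control embryos and at 18.2 and 43.8 CPM in XX ECKO embryos. XY Control embryos held 60.5 and 147 CPM and XY ECKO embryos 145 and 182 CPM. XX ECKO embryos lay below XX Control embryos, and the XY groups overlapped narrowly, at 145 and 147 CPM. With 2 embryos a group, full separation arises often by chance. The log2 fold change was -1.09 in XX (SE 0.58, edgeR adjusted p = 0.460, 0.0215% of 13956 genes passing) and 0.66 in XY (SE 0.57, adjusted p = 0.851, 0.00717% passing). Leaving out 1 embryo moved these values between -1.86 and -0.59 in XX and between 0.19 and 1.45 in XY. The XX minus XY difference of -1.75 had an unadjusted p of 0.0540 in edgeR (SE 0.81) and an adjusted p of 1.0. For that difference edgeR called 0 genes (0%), DESeq2 called 200, and 681 had an unadjusted edgeR p under 0.05. Between XX and XY Control embryos the difference in Tet1 was -0.65 (SE 0.57, edgeR adjusted p = 0.974, 0.043% of genes passing). Sex and deposited table go together there too. E12.5 values come from single-cell libraries, and their levels are not set against the bulk levels.

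A single cell was counted as having Tet1 from 10 CPM upwards. In XX Control embryos a and b, 10 of 14 and 12 of 16 cells had it (71.4%, exact Clopper-Pearson 95% interval 41.9% to 91.6%, and 75.0%, 47.6% to 92.7%). XX ECKO embryos had 5 of 13 and 7 of 13 such cells (38.5%, 13.9% to 68.4%, and 53.8%, 25.1% to 80.8%). These intervals cover counting error and overlap between genotypes. XY Control embryos had 13 of 13 and 22 of 22, and XY ECKO embryos 15 of 18 and 17 of 18. The median Tet1 level per cell was 59.6 and 52.9 CPM in XX Control, 2.24 and 23.1 CPM in XX ECKO, 35.3 and 114.8 CPM in XY Control, and 70.6 and 150 CPM in XY ECKO. In XX ECKO a single cell supplied 56.1% of Tet1 reads of embryo a and 48.1% of embryo b. Median depth was 1998460 and 1422490 counts per cell in the XX ECKO embryos and 1981850 and 1638230 in the XX Control embryos. After thinning of each cell to 50000 counts, Tet1 had a read in 71.4% and 87.5% of XX Control cells and in 46.2% of cells of each XX ECKO embryo, with no kept cell left out.

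Tet3 had no read in the 30 XX Control cells kept at E12.5. XX ECKO embryo a had 65 Tet3 reads in 1 of 13 cells and embryo b had Tet3 reads in 4 of 13 cells, which summed to 16.7 CPM. XY Control cells had 14 reads in 1 cell, and XY ECKO cells 29 reads in 1 cell. Embryo a was at 2.43 CPM of Tet3. With both embryos pooled and total counts alone as scaling, XX ECKO was at 8.53 CPM. This was 160-fold the 0.0532 CPM that 3 counts in all XX Control cells would give. The difference did not pass in edgeR (adjusted p = 0.325) and passed in DESeq2 (adjusted p = 0.0147), and 1 cell held 71.2% of the reads of embryo b. All 5 XX ECKO cells with Tet3 had reads of the germ cell genes Ddx4 and Dazl, 1 had Pou5f1, and 4 had Tet1. Of the XX ECKO cells without Tet3, 11 of 12 in embryo a and 7 of 9 in embryo b had Pou5f1. Ddx4 was in 11 of 12 and 8 of 9 of them and Dazl in 12 of 12 and 9 of 9, so neither gene sets the cells with Tet3 apart. Median germ cell marker sums were 1631 and 722 CPM in the cells with Tet3 of embryos a and b, against 2527 and 1749 CPM in those without. The lowest germ cell sum was 169 CPM among the embryo b cells with Tet3. Among cells without Tet3 the lowest were 107 and 374 CPM in embryos a and b. Interstitial marker sums of the cells with Tet3 were 159 CPM in embryo a and a median of 50.2 CPM for the 4 cells of embryo b. Of these 4 cells the highest was at 2419 CPM and 1 was at 0. Cells without Tet3 had medians of 0.50 and 1.92 CPM, with 6 of 12 and 4 of 9 at 0. The XY ECKO cell with Tet3 had Pou5f1 reads, a germ cell marker sum of 2781 CPM and an interstitial sum of 0. The part of other cells or of doublets in these Tet3 reads was not tested, and no doublet caller was run on 127 sorted cells.

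**Figure D5:**
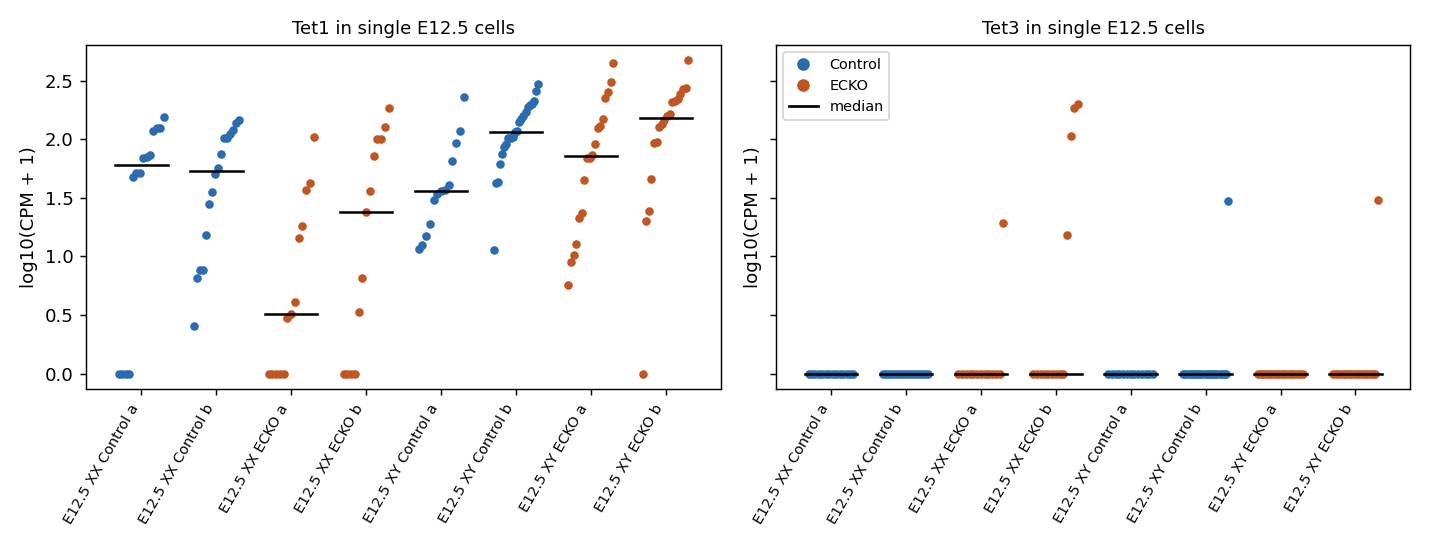
Tet1 and Tet3 in each kept E12.5 cell as log10(CPM + 1), by group and embryo, with bars at the median. Tet1 medians are lowest in the XX ECKO embryos (2.24 and 23.1 CPM), and Tet3 is above 0 in 5 XX ECKO cells, 1 XY Control cell and 1 XY ECKO cell.

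Tet2 reads were rare in single cells. Tet2 was present at 10 CPM or more in 0 of 14 and 2 of 16 XX Control cells, 3 of 13 and 1 of 13 XX ECKO cells, 1 of 13 and 1 of 22 XY Control cells, and 0 of 18 and 2 of 18 XY ECKO cells. In each of the embryos at 0, 2 cells had Tet2 reads below that level. Taken as 3 counts of the total, a count of 0 allows a share of up to 21.4% of 14 cells and 16.7% of 18 (exact Clopper-Pearson upper bounds 23.2% and 18.5%). Summed Tet2 was at 0.853 and 6.95 CPM in XX Control, 6.61 and 12 CPM in XX ECKO, 1.33 and 1.24 CPM in XY Control and 0.451 and 4.38 CPM in XY ECKO, and 1 cell supplied between 59.3% and 99.5% of an embryo's Tet2 reads. Neither sex passed the test (XX 1.25, SE 1.76, edgeR adjusted p = 0.831; XY 0.91, SE 1.76, adjusted p = 0.978). Tet1 was the single Tet gene detected in most cells with any Tet read, at any count, in 7 of 8 embryos, the exception being XX ECKO embryo b with 5 of 11 such cells, and 1 cell had all 3 genes.

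Tdg, the glycosylase that acts after the TET enzymes, had next to no reads and could not be compared. It had 7 reads among 176956187 counts over the 22 bulk libraries, with reads in 5 libraries and at most 2 in any. At E12.5 it had 3 reads, in 2 cells of XX ECKO embryo a. A bulk library with 0 reads allows up to 0.200 to 7.22 CPM, depending on its depth. Tdg did not pass the filter on low counts in any comparison. RefSeq lists the near copies Tdg-ps and Tdg-ps2; the table's row for the latter, under its older name Gm9855, held 0 reads. The way the counting treated reads shared between copies is not given, so the Tdg counts are uncertain and no expression level was read from them.

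Genes that work beside the 4 members were described from lists of 64 genes, chosen with earlier results of these data known. In XY at E11.5, 3 of 59 listed genes tested passed, all higher, against 2.13% of all genes in either direction and 1.51% higher. Uhrf1, which brings the maintenance methyltransferase to replicated DNA, rose by 1.38 (SE 0.30, edgeR adjusted p = 0.0261). The de novo methyltransferase gene Dnmt3b rose by 2.50 (SE 0.62, adjusted p = 0.0452), and Stra8, which drives entry into meiosis, rose by 4.82 (SE 0.89, adjusted p = 0.0127). There edgeR called 0 of 21 base excision repair genes, 0 of 5 deaminase and Gadd45 genes and 0 of 13 TET partner and cofactor genes. Of these lists 4, 1 and 0 genes had an unadjusted p under 0.05, and DESeq2 called 0, 0 and 1. Over all genes, 2007 of 12497 had an unadjusted edgeR p under 0.05, and DESeq2 called 1031. In XX at E11.5, edgeR called 0 of 59 listed genes, DESeq2 called 3, and 9 had an unadjusted edgeR p under 0.05. Over all genes edgeR called 19 of 11058 (0.172%) and DESeq2 called 325. An unadjusted edgeR p under 0.05 was found for 1542 of the 11058. In XY at E13.5, 5 of 61 passed, against 4.9% of all genes. Dnmt3b rose by 3.45 (SE 0.65, adjusted p = 0.0149) and the de novo methyltransferase gene Dnmt3a by 1.64 (SE 0.35, adjusted p = 0.0239). Mael, a gene of the piRNA pathway, and Sycp1, a part of the synaptonemal complex, rose by 2.15 and 1.96. Fen1, a flap endonuclease of base excision repair, fell by 1.81 (SE 0.48, edgeR adjusted p = 0.0493). It was the 1 repair gene of 20 that passed in edgeR. DESeq2 called 3 repair genes and 15 listed genes there, and 2100 over all genes. An unadjusted edgeR p under 0.05 was found for 22 of the 61 listed genes and 2795 of all 12336.

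The repair list had median log2 differences of ECKO against Control of -0.16 (E11.5 XY), 0.18 (E11.5 XX) and 0.04 (E13.5 XY), beside 0.0016, 0.03 and 0.05 over all genes tested. At E12.5 its medians were -0.50 in XX and -0.49 in XY, beside 0.13 and 0.10 over all genes. There edgeR called 0 of 21 repair genes in each sex, 3 and 1 had an unadjusted p under 0.05, and DESeq2 called 2 and 0. Over all 13956 genes tested at E12.5, edgeR called 3 in XX and 1 in XY. Of these genes 1710 and 881 had an unadjusted edgeR p under 0.05. DESeq2 called 1085 and 397 over all genes. The germ line genes linked to TET1 had bulk medians of 0.38, 0.62 and 0.72 in the same order, and 1, 0 and 2 of 8 genes passed, all higher. At E12.5 the medians were 1.55 in XX and 1.47 in XY, and in each sex edgeR called 0 of 9 genes, DESeq2 called 2, and 2 had an unadjusted edgeR p under 0.05. TET partner genes, which include Ogt and the isocitrate dehydrogenases that make alpha-ketoglutarate, had bulk medians of -0.08, -0.03 and 0.12, and of -0.40 and -0.21 at E12.5 in XX and XY. The methylation and reader list had bulk medians of -0.07, -0.08 and 0.19, and of 0.41 and 0.13 at E12.5. Deaminase and Gadd45 genes had 0.14, 0.53 and -1.32 over the 5, 6 and 6 genes tested in bulk, and -0.75 and -0.85 over 5 genes at E12.5.

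From E11.5 to E13.5 in XY Control, when Tet1 rose, 28 of 63 listed genes passed, against 31.5% of all genes. By list, 33.3% of repair, 33.3% of deaminase and Gadd45, and 35.7% of partner genes passed, near the share of all genes. The germ line list was at 77.8% and the methylation list at 53.8%. Of the germ line genes, 7 of 9 rose, among them Mael (3.26), Smc1b (3.24), Dazl (4.41) and Hormad1 (3.69) on the log2 scale. Of the repair genes 2 rose and 5 fell, with the uracil glycosylase gene Ung at -2.41, the ligase gene Lig3 at 1.12 and Apex1 at -2.64. Gadd45a (-3.11) and Gadd45b (-2.65) fell. Sin3a (1.39) and Vprbp (1.62) rose and Idh2 (-2.73) and Idh1 (-1.92) fell among 3 higher and 2 lower partner genes. Of the methylation list 6 rose and 1 fell, with Uhrf1 at 1.74, Dnmt1 at 1.14, Dppa3 at 0.86 and Mbd3 at -2.22. All the values named here had an edgeR adjusted p of at most 0.0323.

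The genes most like each member across the 22 bulk libraries were ranked by Pearson's r of log2(CPM + 1) among 8645 genes with at least 5 CPM on average in each table, as a description of libraries that share groups and depth. Tet1 was most like Sgol2a, Rbm27 and Lgr4, each with r = 0.95 to 0.96, and r stayed at 0.90, 0.91 and 0.93 after group means were removed. Tet3 was most like Lpp (0.94), Clip3 (0.92) and Dbn1 (0.89), with 0.92, 0.89 and 0.87 within groups. Tet2 had no match of that closeness: Trove2, Rap1a and Malat1 reached 0.70, 0.68 and 0.68.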

How the data were processed

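RNA was measured in sorted PGCs as bulk libraries and as single Smart-seq2 cells, per the labels' protocols. The deposited tables hold counts, whole numbers per gene symbol. The submitters' processing notes name mm9 as the build, with HISAT2 and edgeR among the tools. The counting program, the annotation and the use of strand were not given in the sources used here, so reads of overlapping or antisense genes cannot be told apart. The members and lists were chosen with earlier results of these data known. No column of other samples was used, and the 8 bisulfite libraries were not analysed here.

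The 3 bulk tables were fitted separately with the quasi-likelihood test of edgeR 4.0.16 in R 4.3.3, after filterByExpr and with TMM normalization factors, and p-values were adjusted over all genes tested, with a threshold of 0.05. The SE printed with an edgeR value is the absolute log2 fold change divided by the square root of the F statistic. Interactions and stage or sex contrasts used joined tables (15 libraries each). At E12.5, kept cells were summed per embryo and 8 embryos fitted together. Cell headers carry codes that the labels do not tie to embryo numbers, so embryos were called a and b in header order. The header and title placed 1 XX cell labelled wild type in ECKO. Printed CPM used TMM factors over the 22 bulk libraries or the 8 embryos, and marker sums used total counts alone. The 30 pairs of replicates differed by more than counting error (chi-square per degree of freedom 4.49 to 192), and no cell columns shared a name or values. Named genes were the members, Eed, up to 4 passing genes of each list by adjusted p, and the 3 most alike genes; 1 gene that the rule names is not reported here. Alternatives were DESeq2 1.42.0, other scaling, filters, cell cut-offs, fits and blocks, and leaving out each library. The test was tried on simulated data, with changes planted in genes with many reads alone, and no result here rests on that trial. Reads carry no molecular identifiers, so intervals and floors cover counting error only.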

Additional observations from a re-analysis of the deposited data

Results flagged for a closer look

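Among 15 groups of 4 libraries with any read of a member, 3 values lay apart from the rest of their group by Dixon's test at the 95% level, where chance gives such a value in about 1 of 20 groups of varied values. Tet3 in E11.5 XY Control 1 was at 23.1 CPM, against 0.974 to 3.93 CPM in the other Control libraries, and that library also had the highest interstitial (90.2 CPM) and blood (333 CPM) marker sums of its group. Tdg in E11.5 XY ECKO 1 was at 0.153 CPM and in E11.5 XX ECKO 3 at 0.341 CPM, which stand for 2 reads and 1 read in groups otherwise at 0; such a group is marked whatever the size of its single value, so that rate of chance does not hold for Tdg.

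The 65 wells that did not pass the cell filter at E12.5, with a median of 1717 counts, together held 35 Tet1 reads, in 15 wells, among 347526 counts. They also held 3 Tet2 reads, 1 Tet3 read and 0 Tdg reads.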

How the results depend on the processing

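Of the alternatives other than left-out libraries, 207 values of Tet1, Tet2 and Tet3 kept direction and side of the threshold, 4 lost a call, 4 gained one and 5 reversed, where a log2 difference is meant throughout and no cause of a change was tested. Tet1 in E11.5 XY lost its call with total counts alone (-0.63) and with all 22 bulk libraries in 1 fit (-0.70). Tet1 in E13.5 XY gained one in DESeq2 (-2.33), with every gene of at least 1 count (-2.32) and with all 22 libraries (-2.40). Tet3 in E12.5 XX gained one in DESeq2 (10.6, fitted against Control cells without a read). The E11.5 interaction of Tet2, at 0.0025, turned to -0.056 in DESeq2, -0.043 with RLE size factors, -0.0093 with total counts, -0.048 with every gene and -0.021 with genes of at least 5 CPM. With the replicate number as a block, Tet1 in E11.5 XY (-0.69, adjusted p = 0.0538) and Tet3 in E13.5 XY (5.02, adjusted p = 0.0819) lost their calls and no other call of these genes changed. Libraries with the same number correlated between -0.146 and 0.168 in their deviations from group means, so the numbers were not taken to pair libraries. No paired analysis was possible at E12.5 because the groups share fewer than 2 codes: 1 XX Control and 1 XX ECKO embryo have header codes that begin alike, no other embryos do, and the labels do not say what the codes mean.

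Leaving out 1 library gave, for ECKO against Control, E11.5 XY Tet1 between -0.75 and -0.56 and Tet3 between -0.29 and 2.76, E11.5 XX Tet2 between -0.20 and 0.87, and E13.5 XY Tet1 between -4.12 and -1.86 and Tet3 between 3.79 and 5.09. The E11.5 interaction ranged from -0.034 to 0.24 for Tet1, from -0.53 to 0.57 for Tet2 and from -1.38 to 3.43 for Tet3. The XX minus XY Control difference at E11.5 ranged from -0.36 to 0.74 for Tet2 and from -1.85 to 2.98 for Tet3. The change of the XY effect with stage ranged from -3.34 to -1.20 for Tet1, and Tet3 between stages in XY Control from -1.69 to 0.52. At E12.5 leaving out an embryo leaves 1 in its group, which is assumed to vary like the other groups: XY Tet2 ranged from -1.50 to 1.74 and Tet3 from -5.97 to 6.61, the Control sex difference from -1.12 to 0.14 for Tet1 and from -0.56 to 2.43 for Tet2, and the interaction of Tet2 from -0.51 to 2.75.

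The share of cells with Tet1 at any count was 100% in XX Control b and XY ECKO a. At 50 CPM it was 7.69% in XX ECKO a and 30.8% in XY Control a, where thinned cells gave 61.5%. At 50 CPM the share was 0% for Tet2 in XX ECKO a, XY Control a and XY Control b and 0% for Tet3 in XX ECKO a, XY Control b and XY ECKO b, and thinning gave 0% for Tet3 in XX ECKO a.

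Genes called differed between edgeR and DESeq2: 266 and 1031 in E11.5 XY, 19 and 325 in E11.5 XX, 604 and 2100 in E13.5 XY, 0 and 1 for the E11.5 interaction, 42 and 175 between E11.5 Control sexes, 173 and 911 for the stage interaction, 3 and 1085 in E12.5 XX, 1 and 397 in E12.5 XY, 6 and 348 between E12.5 Control sexes, and 0 and 200 for the E12.5 interaction. With every gene of at least 1 count edgeR called 457, 217 and 1268 in the bulk comparisons of ECKO, and with all 22 libraries in 1 fit 23, 9 and 2987. The block gave 151, 37 and 68 there. Left-out libraries gave 64 to 333, 0 to 26 and 94 to 2141. The shallowest library, E11.5 XX Control 1, held 415291 counts, and the part of depth in the XX counts was not tested. Tdg had too few reads to pass the filter.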

Other observations

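The Tet1 and Tet3 levels of the 22 bulk libraries ran in opposite directions, with a Pearson's r of log2(CPM + 1) of -0.64, and of -0.42 after group means were removed. This is a description, since the libraries share groups and depth. Tet1 and Tet2 gave 0.47 and 0.41 on the same measures, and Tet2 and Tet3 gave 0.016 and 0.27.

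In the 3 ECKO libraries of E13.5 XY, the library with most Tet1 (ECKO 1, 1749 CPM) had the least Tet3 (27.8 CPM) and the least Eed (3.18 CPM), and the library with least Tet1 (ECKO 3, 123 CPM) had the most Tet3 (147 CPM). With 3 libraries this order was not tested.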
